A study of Mus musculus with 8 samples.

Results

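The regions described here are the peaks called from anti-H3K27me3 libraries of Ezh2-cKO chondrocytes set against those of wild-type (WT) chondrocytes. All peaks of both deposited lists were taken, 28057 in WT and 33739 in Ezh2-cKO, which makes 61796 of the 138214 peaks in the 4 lists of the study. The study asked how much H3K27me3 mouse chondrocytes carry when Ezh2, Utx or Jmjd3 is deleted. Per the labels, the cells are chondrocytes from cartilage, kept in DMEM with fetal bovine serum, and the antibody was anti-H3K27me3 (Millipore, #07-449). The WT group is labelled "Wild type" and the knockout "Ezh2-Cko", read here as a conditional knockout. The Utx-cKO and Jmjd3-cKO lists, which lack an H3K27 demethylase by label, are used only for values side by side. The labels say nothing of the driver of Cre, of the age, sex and strain of the mice, or of pooling. Each genotype has 1 ChIP and 1 input library, so no difference below has a replicate check, and no test or p-value is given.

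Ezh2 is the catalytic subunit of Polycomb repressive complex 2 (PRC2), which adds methyl groups to lysine 27 of histone H3. Eed and Suz12 are its core partners, and Ezh1 is a second methyltransferase that can take the place of Ezh2. The trimethylated mark typically forms broad domains over silent developmental genes, such as the Hox clusters outside their domain of expression and transcription factors of other lineages. In growth plate cartilage, PRC2 is known as a regulator of chondrocyte proliferation and hypertrophy.

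The promoters of 5 genes show the kinds of region that the comparison turns on. Each is the window of 300 bases, from 250 before to 50 after the annotated start, taken from RefSeq on GRCm38.p6 and written 5′ to 3′ on the strand of the gene. CG dinucleotides, the sites of CpG methylation, are in capitals. A CG reads the same on both strands, and 95.4% of all promoter windows in the table hold at least 1. Ezh2 (chr6:47594981-47595280, minus strand, 31 CG) is the targeted gene, and its window lay in a peak in both lists. Acan (chr7:79052976-79053275, plus strand, 31 CG) encodes aggrecan, the main proteoglycan of cartilage, and lay in a domain over 5 kb long in both. Parp2 (chr14:50807666-50807965, plus strand, 25 CG) had a shorter peak in Ezh2-cKO. Hoxd13 (chr2:74667975-74668274, plus strand, 37 CG), a gene of distal limb patterning, overlapped a peak in WT alone. Akain1 (chr17:69439076-69439375, plus strand, 27 CG) overlapped one in Ezh2-cKO alone.
Ezh2: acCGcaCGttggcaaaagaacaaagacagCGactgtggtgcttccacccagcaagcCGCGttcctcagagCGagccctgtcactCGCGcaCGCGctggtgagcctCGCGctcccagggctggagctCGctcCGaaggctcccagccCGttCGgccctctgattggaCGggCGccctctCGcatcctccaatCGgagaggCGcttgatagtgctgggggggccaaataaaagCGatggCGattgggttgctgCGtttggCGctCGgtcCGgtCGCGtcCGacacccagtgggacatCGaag
Acan: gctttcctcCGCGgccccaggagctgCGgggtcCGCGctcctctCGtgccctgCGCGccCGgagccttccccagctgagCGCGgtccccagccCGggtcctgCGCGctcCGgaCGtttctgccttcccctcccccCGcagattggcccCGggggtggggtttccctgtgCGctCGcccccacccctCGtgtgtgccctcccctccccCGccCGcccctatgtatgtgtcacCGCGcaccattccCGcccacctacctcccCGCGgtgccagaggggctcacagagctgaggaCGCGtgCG
Parp2: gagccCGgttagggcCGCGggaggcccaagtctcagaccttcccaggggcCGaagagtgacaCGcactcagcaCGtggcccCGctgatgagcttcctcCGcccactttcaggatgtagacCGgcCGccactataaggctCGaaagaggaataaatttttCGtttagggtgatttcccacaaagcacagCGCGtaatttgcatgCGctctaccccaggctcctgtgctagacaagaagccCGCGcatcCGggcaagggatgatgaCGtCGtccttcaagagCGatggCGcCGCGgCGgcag
Hoxd13: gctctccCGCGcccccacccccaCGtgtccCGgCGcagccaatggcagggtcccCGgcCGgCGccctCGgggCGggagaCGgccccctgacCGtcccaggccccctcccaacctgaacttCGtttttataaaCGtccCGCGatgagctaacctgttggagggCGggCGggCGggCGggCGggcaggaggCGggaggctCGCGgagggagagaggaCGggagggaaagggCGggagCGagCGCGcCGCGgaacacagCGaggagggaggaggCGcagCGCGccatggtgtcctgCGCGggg
Akain1: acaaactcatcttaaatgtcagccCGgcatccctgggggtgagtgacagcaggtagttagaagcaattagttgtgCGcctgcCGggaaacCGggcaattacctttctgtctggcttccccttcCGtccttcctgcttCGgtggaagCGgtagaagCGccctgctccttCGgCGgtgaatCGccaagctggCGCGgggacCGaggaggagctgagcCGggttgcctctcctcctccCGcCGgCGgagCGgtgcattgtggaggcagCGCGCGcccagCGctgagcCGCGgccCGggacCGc

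Losing Ezh2 by label did not go with fewer called regions or less covered genome. The Ezh2-cKO list held 1.2 times as many peaks as the WT list and covered 48.1 Mb against 40.5 Mb, a ratio of 1.19. Median peak length was 962 bp in Ezh2-cKO and 997 bp in WT. There were 869 peaks of 5 kb or more in Ezh2-cKO and 701 in WT, and the longest measured 30305 and 34271 bp. Depth moved with these counts: the Ezh2-cKO ChIP library held 34786292 fragments against 29222251 (ratio 1.19), and its input 24041619 against 16599532 (ratio 1.45). The larger library of each pair was scaled down to the smaller, so the input sets the depth at which each list was called. More fragments let weaker regions pass a fixed q threshold, and the part of depth in the results below was not tested. The prefixes of the library titles also differ between these genotypes, so that prefix and genotype cannot be told apart. Utx-cKO, with 23983492 input fragments, had 49405 peaks, and Jmjd3-cKO, with 16645811, had 27013.

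The list itself cannot check the deletion of Ezh2, since a peak over the gene shows chromatin and not protein. The peak at the Ezh2 start was 2412 bp long in WT (chr6:47593600-47596011) and 2797 bp in Ezh2-cKO (chr6:47593221-47596017). Its paralogue Ezh1 and the partners Eed and Suz12 were also covered in both lists. The peak at Ezh1 was 1014 bp long in WT and 1036 bp in Ezh2-cKO, that at Eed 3427 and 3130 bp, and that at Suz12 2744 and 3116 bp. A gene is called covered at its ends where a peak lay within 2 kb of either end. By that rule 29 of 30 housekeeping genes were covered in WT and 29 in Ezh2-cKO, against 12 and 20 of 45 transcription factors of other lineages. Of all protein-coding genes, 62.3% were covered in WT and 64.5% in Ezh2-cKO. Cover of housekeeping genes above that of all genes, and of lineage factors below it, is unlike the pattern described above for H3K27me3, and so goes against the label in both lists. The regions are therefore named below as called peaks, with no reading of repression.

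Markers of the labelled cell type were among the covered genes. Sox9, the master regulator of chondrocytes, lay under a peak of 7847 bp in WT and 8929 bp in Ezh2-cKO. In all, 25 of 28 genes of chondrocyte matrix and regulation were covered at an end in WT and 26 in Ezh2-cKO, the added gene being Chad, which encodes the matrix protein chondroadherin. Markers of other cells that cartilage preparations can hold were looked up in the same way, and are read against the 62.3% and 64.5% of all genes. Of 15 muscle markers, 2 were covered in WT and 3 in Ezh2-cKO, with Myod1, Myog and Myf5 in neither list. Of 16 endothelial markers, 6 and 7 were covered, and of 20 blood markers, 7 and 10. Pecam1, Cdh5 and Ptprc, which mark endothelial and blood cells, had no peak at either end. Other members of these lists went the other way. The endothelial marker Egfl7 had a peak at a start site, of 808 bp in WT and 3210 bp in Ezh2-cKO. Peaks covered 10572 and 9723 bp over Runx1, of the blood list, and 2 kb around it. The blood markers Tal1 (361 bp), Laptm5 (537 bp) and Cd3e (365 bp) were covered at an end in Ezh2-cKO alone. Tal1 had a WT peak 2 to 5 kb from an end. Markers of tendon and synovium went the other way, with 18 of 20 covered in each list. Of 14 adipogenic markers, 9 were covered in each list, a share near that of all genes. High cover was thus not limited to genes of chondrocyte matrix and regulation. A peak list gives no level of a cell type, so the part of other cells in the differences was not tested.

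Peaks were paired where they overlapped by at least 1 bp. In WT, 22647 peaks had a partner and 5410 did not, 19.3% of the list (95% Wilson interval 18.8 to 19.7). In Ezh2-cKO, 22443 peaks had a partner and 11296 did not, 33.5% of the list (33.0 to 34.0). These intervals, like all below, cover counting error only. When each list was cut to the 28057 peaks of smallest p, 6572 WT and 6824 Ezh2-cKO peaks were without partner. With lists of equal length and mostly single partners, both counts must lie close together, so their closeness is not a result.

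Most of the covered genome was shared. The lists had 33.5 Mb in common, 82.6% of the WT length and 69.6% of the Ezh2-cKO length. Of the WT length, 2.85 Mb lay in peaks without partner and 4.19 Mb at the edges of paired peaks. In Ezh2-cKO these shares were 7.04 and 7.55 Mb. Peaks without partner were short and weak in both lists. Their median length was 413 bp in WT and 481 bp in Ezh2-cKO, against 1268 and 1435 bp for paired peaks. Their median fold enrichment, which the authors compute against the input, was 2.72 in WT and 2.58 in Ezh2-cKO, against 4.14 and 4.57. Of the peaks with fold enrichment of 4 or more, 27 of 11716 in WT (0.23%) and 51 of 12498 in Ezh2-cKO (0.408%) had no partner. The nearest peak of the other list lay a median 9566 bp from WT peaks without partner and 10524 bp from those of Ezh2-cKO.

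Width was compared over the 21638 pairs in which each peak overlapped 1 peak of the other list. Ezh2-cKO peaks were slightly wider. The median log2 ratio of Ezh2-cKO over WT length was 0.081, a factor of 1.06, with quartiles of -0.15 and 0.41. The Ezh2-cKO peak was the longer one in 60.3% of pairs. By 1.5 times or more, 3869 pairs (17.9%) were wider in Ezh2-cKO and 1752 (8.1%) were narrower. In 34.3% of pairs the Ezh2-cKO peak contained the WT peak, in 17.5% the WT peak contained the other, and 48.2% were staggered. The median change was 76 bp, and the centres lay a median 115 bp apart.

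**Figure D1:**
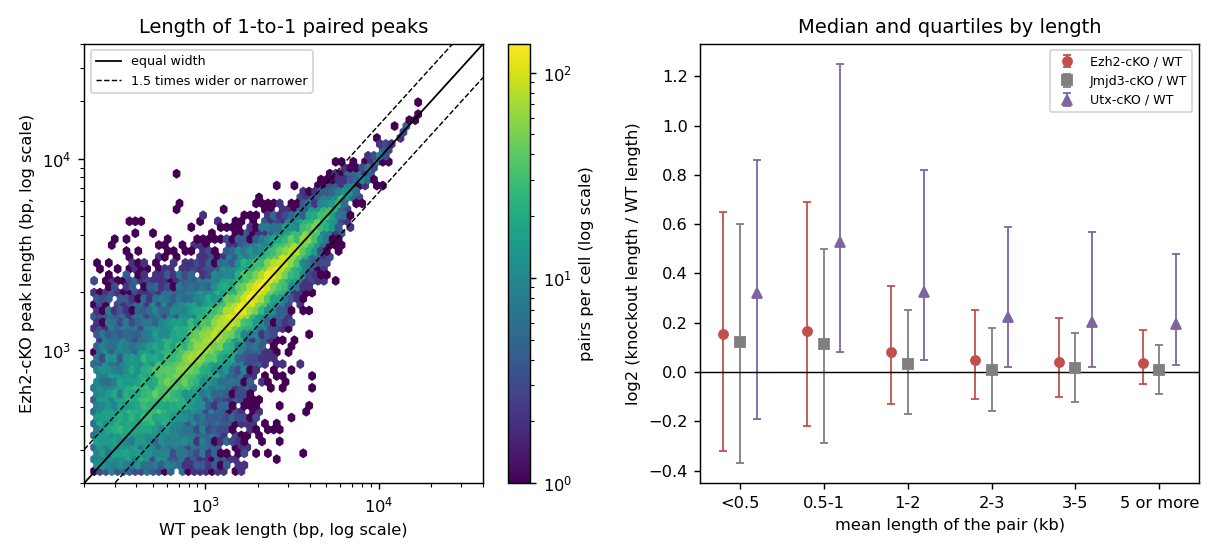
Left, length of WT (x axis) against Ezh2-cKO peaks (y axis) in bp on log scales for 21638 1-to-1 pairs, coloured by number of pairs, with lines of equal width and of a change by 1.5 times. Right, median (symbol) and quartiles (bars) of the log2 ratio of knockout over WT length by mean length of the pair, for 3 knockouts that share the WT list. Long pairs lie close to equal width, and in Ezh2-cKO the median goes from 0.155 under 500 bp to 0.036 at 5000 bp or more.

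The widening was larger among short and weak peaks. Pairs are grouped here by the mean of both lengths, since grouping by 1 list would favour narrowing in the other. Pairs under 500 bp had a median log2 ratio of 0.155 and those of 500 to 1000 bp 0.165. At 3000 to 5000 bp it was 0.041, and among the 553 pairs of 5000 bp or more it was 0.036, with 12 wider and 4 narrower by 1.5 times. By mean rank of fold enrichment, the ratio was 0.321 in the weakest 20% and 0.031 in the strongest 20%. The demethylase knockouts share the WT list and give 0.317 for Utx-cKO and 0.04 for Jmjd3-cKO over all pairs. Pairs wider by 1.5 times made up 35% of those with Utx-cKO and 13% of those with Jmjd3-cKO, and narrower ones 4.93% and 9.38%. Utx-cKO and Ezh2-cKO have inputs of like size, and so do Jmjd3-cKO and WT.

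Overlaps of several peaks were few. In 195 places 1 WT peak met several Ezh2-cKO peaks, and the summed Ezh2-cKO length was the smaller (median log2 ratio -0.371). In 376 places several WT peaks met 1 Ezh2-cKO peak, with a median log2 ratio of 0.595. Summed lengths leave out the gaps between peaks, which lowers the side with several. Measured from first to last base with the gaps, the median log2 ratios were 0.043 in the 195 places and 0.069 in the 376. Joined regions were thus more frequent in Ezh2-cKO, where 394 peaks overlapped several WT peaks, against 212 in the other direction.

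In the lists as deposited, every WT domain, here a peak of 5 kb or more, met an Ezh2-cKO peak. All 701 had an Ezh2-cKO partner, and 0 of 701 allows a share of up to 0.428% by counting error. With fold enrichment of 4 or more in both lists 1 domain was without partner, and 3 after merging peaks within 3 kb. Ezh2-cKO peaks covered a median 96.5% of a WT domain, and 186 domains (26.5%) were covered whole. For 3 domains (0.428%) the covered share was under 50%, against 24.9% for WT peaks of any length. This count was 15 with q of 0.001 or less, 25 with fold enrichment of 4 or more, and 165 of 1606 after merging. Conversely, 44 of 869 Ezh2-cKO domains (5.06%) were covered for under 50% by WT peaks, against 41.6% of all Ezh2-cKO peaks, and the median covered share was 87.5%. Under the same 3 settings the 44 became 67, 94 and 655 of 2263. A single Ezh2-cKO domain, at Gm29776 on chr14:54696710-54701729, had no WT partner. The reciprocal counts thus leaned to longer domains in Ezh2-cKO. Several partners met 1 domain in 103 cases for WT and 183 for Ezh2-cKO, with a median largest gap of 1181 and 1308 bp. Against the Utx-cKO and the Jmjd3-cKO list, every WT domain had a partner, and 1 and 6 were covered for under 50%. In the converse, WT peaks covered under 50% of 690 of 1885 Utx-cKO domains (36.6%) and 19 of 768 Jmjd3-cKO domains (2.47%). The lean to longer domains than in WT was thus common to the knockout lists.

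**Figure D2:**
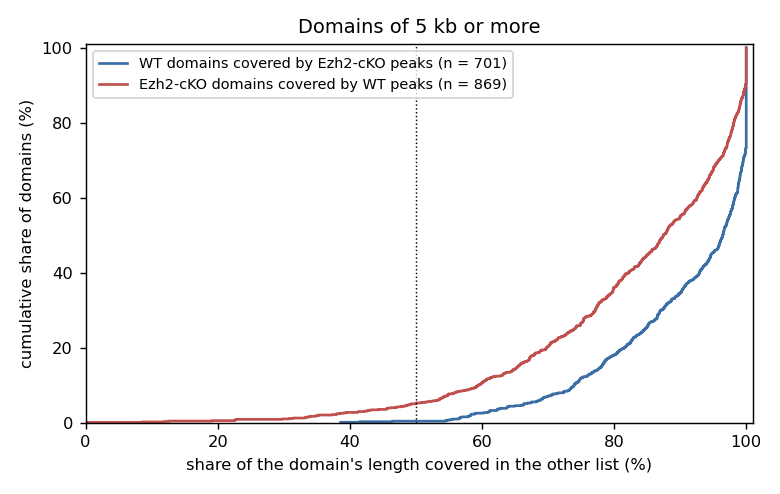
Cumulative share of domains of 5 kb or more (y axis, %) by the share of their length that peaks of the other list cover (x axis, %), for 701 WT domains (blue) and 869 Ezh2-cKO domains (red). The blue curve starts at 38.6%, while the red one reaches 5.06% at the dotted line of 50%.

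The 3 WT domains covered for under 50% lie at gene ends or inside genes. The domain of 5979 bp between Dcakd and Nmt1 (chr11:103027201-103033179) was covered for 38.6%. Nmt1 encodes an N-myristoyltransferase. The domain of 5446 bp at Rpl5, a ribosomal protein gene (chr5:107900565-107906010), was covered for 41.5%. The domain of 5950 bp at Nt5dc3 (chr10:86777028-86782977) was covered for 46.4%. At these places the Utx-cKO list covered 4901, 3630 and 3141 bp and the Jmjd3-cKO list 3762, 3563 and 4722 bp, against 2310, 2259 and 2761 bp in Ezh2-cKO, whose low coverage chose these domains.

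Domains that were longer in Ezh2-cKO included cartilage genes. At Snorc, which encodes a small chondrocyte proteoglycan, the Ezh2-cKO domain of 5955 bp (chr1:87467174-87473128) met a WT peak of 714 bp, 12.0% of its length. At Col2a1, the gene of type II collagen, a domain of 5287 bp inside the gene (chr15:97979688-97984974) was covered for 12.6% in WT. The lowest share with a partner was 8.45%, at a domain of 8056 bp between Niban2 and Lrsam1 (chr2:32921084-32929139). Domains at Rusc2 and Fam166b (19.2%), Trio (22.6%), Ahdc1 (22.6%), Ap4e1 (22.8%), Hspg2 (29.7%) and Mrc2 (30.9%) followed. Hspg2 encodes perlecan, a proteoglycan of cartilage and basement membranes. The fold enrichment of the 10 least covered domains lay between 2.53 and 3.63, except for 6.26 at Ap4e1. Of these stretches, the Utx-cKO list covered all 5287 bp at Col2a1 and all 6051 bp at Hspg2, and the Jmjd3-cKO list 3122 and 2359 bp.

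The 15 longest WT domains were each covered for 86.6% or more in Ezh2-cKO. The first was 34271 bp over Hoxc8, Hoxc9 and Hoxc10 (chr15:102959322-102993592). It met 2 Ezh2-cKO peaks of 32916 bp together, which covered 95.9% of it with a largest gap of 1057 bp. Hox genes set position along the body axes. The domain over Hoxa9 and Hoxa10 was 21937 bp in WT (chr6:52219949-52241885) and 27658 bp in Ezh2-cKO, and there the longer Ezh2-cKO domain joined 2 WT peaks. A domain 45890 bp from Ppara measured 25110 bp in WT and 30305 bp in Ezh2-cKO, and that in Nfix, a nuclear factor of skeletal and neural development, 22272 and 28282 bp. These Ezh2-cKO domains also joined 2 WT peaks each, of 26220 and 24923 bp together. Others were of like length in both lists: 16713 and 16762 bp at Tbx15, a T-box factor of limb skeleton, 14625 and 14790 bp at Trps1, a GATA-type repressor of the growth plate, and 14345 and 13977 bp at Nfib. At Aopep the lengths were 16897 and 16089 bp. The domain at the Col2a1 start was 16587 bp in WT (chr15:97989326-98005912) and 19793 bp in Ezh2-cKO. At Acan the WT peak of 5910 bp and a second one of 1881 bp were joined into 1 Ezh2-cKO domain of 9027 bp.

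Ranks of fold enrichment within each list were alike for paired peaks. Over the 21638 pairs, Spearman's rho was 0.906 for fold enrichment and 0.851 for length, a description across peaks of 1 library a side. Peak size, base composition and mappability are shared by both members of a pair. The median difference in rank percentile was 7.86 points. Of the 100 strongest WT peaks, 51 were paired with 1 of the 100 strongest in Ezh2-cKO, and 626 of 1000 and 3994 of 5000. By length, the same counts were 72, 691 and 3944. Ranks from lists of different lengths show no change in level.

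Pairing followed rank. In WT, 99.6% or more of the peaks had a partner in each 10% step of the list from the 60th percentile up. Between the 20th and 30th percentile it was 54.2%, and in the lowest 10% it was 68.4%. In Ezh2-cKO 27.9% of the lowest 10% had a partner, 57.1% between the 40th and 50th percentile, and 96.9% between the 60th and 70th. Above the 70th percentile both lists were at 99.9% or more.

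**Figure D3:**
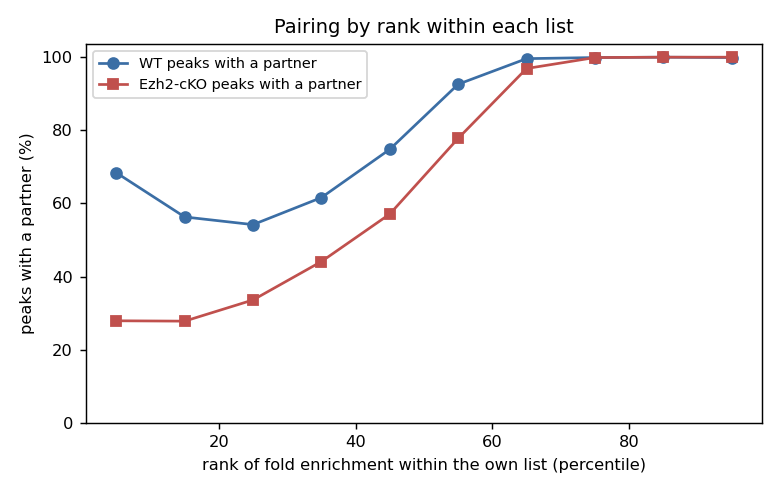
Share of peaks with a partner in the other list (y axis, %) by rank of fold enrichment within the own list (x axis, percentile, in steps of 10), for WT (blue circles) and Ezh2-cKO (red squares). Both curves end at 99.9% or more, and the Ezh2-cKO curve starts at 27.9% against 68.4% in WT.

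A few paired peaks stood far apart in rank. They were taken as the 5 largest differences each way among pairs in the top 25% of either list. Ctsc, the gene of cathepsin C, was at the 75.6th percentile in WT (fold enrichment 6.16) and at the 45.8th in Ezh2-cKO (2.94). A peak 4703 bp from Lca5 was at the 81.0th and 53.2nd, Prickle3 at the 77.6th and 53.9th, Polr1b, a subunit of RNA polymerase I, at the 93.8th and 71.8th percentile. Rab11fip1 had a fold enrichment of 8.57 in WT and 4.89 in Ezh2-cKO. In the other direction, Plau, which encodes urokinase, had a fold enrichment of 3.01 in WT and 6.53 in Ezh2-cKO, a difference of 37.3 rank points. Its peak also measured 748 bp in WT and 1744 bp in Ezh2-cKO. Dclk1 had 3.23 and 7.05, Zfp563 was at the 51.9th and 84.2nd, Mpi at the 53.0th and 84.6th, and Hddc3 at the 63.9th and 95.2nd percentile.

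Among pairs with fold enrichment of 4 or more in both lists, 245 of 10731 (2.28%) were narrower in Ezh2-cKO by 1.5 times and 760 (7.08%) were wider. The strongest narrowing was at Pnp, which encodes purine nucleoside phosphorylase, from 2357 bp in WT (chr14:50943856-50946212) to 279 bp in Ezh2-cKO. Parp2, a DNA repair enzyme, had 2881 bp in WT (chr14:50805904-50808784) and 743 bp in Ezh2-cKO, and its promoter window shown above overlapped both peaks. Sae1, a subunit of the SUMO-activating enzyme, had 2609 and 962 bp. Prmt3, an arginine methyltransferase, had 1781 and 654 bp, Gpr137b 2025 and 552 bp, Mfap1b 1416 and 400 bp, and Tagap1 1052 and 301 bp. The fold enrichment of the 10 most narrowed peaks in Ezh2-cKO went from 4.27 at Rpgrip1 to 11.6 at Sae1, above the minimum of 4 by which they were chosen. At Sae1 it was 5.17 in WT. It was lower in Ezh2-cKO than in WT only at Gpr137b (4.62 against 4.68) and Rpgrip1 (4.27 against 4.7). Several of these peaks were shorter in other knockouts too. In Jmjd3-cKO, peaks at Pnp covered 346 bp of the WT peak, those at Parp2 596 bp and those at Mfap1b 466 bp. Utx-cKO peaks covered all 2357 bp at Pnp, 1867 bp at Parp2 and 468 bp at Mfap1b. At Sae1, by contrast, both demethylase knockouts covered all 2609 bp.

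Widened pairs of the same strength included Ap4e1, a subunit of an adaptor complex of vesicle transport, at 1279 bp in WT and 5605 bp in Ezh2-cKO (chr2:127005138-127010742). Dnajb5, a co-chaperone, had 557 and 2377 bp, and Egfl7, an endothelial secreted factor, 808 and 3210 bp. Pgd, an enzyme of the pentose phosphate pathway, had 1992 and 6341 bp. Cnp had 708 and 2371 bp, Micu2 884 and 2910 bp, Ezr 990 and 3260 bp, Pnma1 517 and 2129 bp, Rnf208 497 and 2018 bp, and a peak near Ruvbl1 554 and 2354 bp. At Ap4e1 the Utx-cKO list covered all 5605 bp and the Jmjd3-cKO list 3009 bp of the same stretch.

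By chromosome, peaks without partner were spread over all autosomes. In WT their share went from 16.4% on chromosome 19 to 23.4% on chromosome 16, and in Ezh2-cKO from 29.3% on chromosome 13 to 35.6% on chromosome 5. Chromosome X stood below both ranges, with 8.69% in WT (49 of 564 peaks, 6.63 to 11.3) and 14.9% in Ezh2-cKO (90 of 605, 12.3 to 17.9). Its peaks also had a higher median fold enrichment, 4.47 in WT and 4.48 in Ezh2-cKO, against 3.37 and 3.07 over the whole lists. The number of peaks in Ezh2-cKO over WT was 1.07 on X and 1.21 on the autosomes.

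The sex chromosomes differed in another way, seen after the values were known. WT had 6 peaks on chromosome Y, at the genes Kdm5d, Eif2s3y, Uty and Ddx3y and at 2 places without a gene, and Ezh2-cKO had none. Of the 51 partnerless Ezh2-cKO peaks with fold enrichment of 4 or more, 7 lay on X, as did 605 of all 33739 Ezh2-cKO peaks. All 7 fell in 2 long noncoding RNA genes. Firre (chrX:50563120-50635321) held 20 peaks of 10484 bp in Ezh2-cKO and 6 of 2613 bp in WT. 4933407K13Rik (chrX:75725458-75764699), the transcript of the Dxz4 locus, held 6 peaks of 3258 bp in Ezh2-cKO and 1 of 1042 bp in WT. Both loci are known as contact points of the inactive X chromosome of females. Xist, the RNA that coats it, had 1 peak in each list, of 3097 bp in Ezh2-cKO and 2791 bp in WT. The Utx-cKO list had 19 peaks at Firre, 2 at 4933407K13Rik and 4 on Y, and the Jmjd3-cKO list 10, 4 and 2. The sex of the cells is not given in the sources used here, and sex and genotype cannot be told apart. On the autosomes alone, 5355 WT and 11206 Ezh2-cKO peaks had no partner.

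The other strong peaks without partner were scattered, with some in neighbouring groups. They too were singled out after their values were seen. The highest fold enrichment of a WT peak without partner was 12.2, at a peak of 241 bp on chr6:47753209-47753449, 158 kb from Ezh2. The Utx-cKO and Jmjd3-cKO lists covered 237 and 239 bp of it, so Ezh2-cKO alone of the 4 lists lacked it. Chromosome 17 held 6 of the 27 strong WT peaks without partner, and 1234 of all 28057 WT peaks. Among the 6 were peaks at Dynlt1b (1077 bp, fold enrichment 6.12), Tcte3 and Ermard (296 bp, 5.91), Rnaset2b (523 bp, 4.41) and Zfp994 (1471 bp, 4.94). Of the 27, a peak stood at the same place in 18 cases in Utx-cKO and in 15 in Jmjd3-cKO. Of the 51 in Ezh2-cKO, a peak stood there in 45 and 32 cases. Some strong peaks without partner are near pseudogenes or close gene copies, and such values are uncertain. Gm7107, Gpr137b-ps and Ppp1r2-ps5 were the nearest genes to 3 of the 6 highest in WT.

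The longest WT peak without partner was 4061 bp inside P4ha1, which encodes a subunit of collagen prolyl 4-hydroxylase (chr10:59331774-59335834, fold enrichment 2.98). It was the only WT peak of 3 kb or more without partner. Peaks of 2866 bp in Cpne8, 2849 bp in Myo1d, 2614 bp in Hipk2 and 2593 bp in Tm9sf2 were next inside genes. In Ezh2-cKO, 28 peaks of 3 kb or more had no partner. After the 5020 bp at Gm29776 came 4633 bp at 8316 bp from Ddx6, 4480 bp in Fhod3, 4211 bp in Grip2 and 3752 bp in Sbno2. These long peaks were weak, between 2.48 and 3.16 in fold enrichment among the 10 longest of WT. All 10 of WT and all 10 of Ezh2-cKO met a peak in the Utx-cKO list, and 7 and 3 met one in the Jmjd3-cKO list.

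Peaks without partner lay mostly away from start sites. A peak was placed at a start site where its centre lay within 2 kb of one. At start sites 212 of 10185 WT peaks (2.08%, 1.82 to 2.38) and 560 of 10471 Ezh2-cKO peaks (5.35%, 4.93 to 5.8) had no partner. Inside genes the shares were 34.8% in WT (3175 of 9122) and 51.2% in Ezh2-cKO (6147 of 11998). Within 50 kb of a gene they were 30.4% and 49.4%, and farther out 38.4% and 49.6%. The gap between the lists was widest at 3′ ends, with 20.5% in WT (160 of 782, 17.8 to 23.4) and 53.6% in Ezh2-cKO (697 of 1301, 50.9 to 56.3). Peaks at start sites are also the stronger ones. Within peaks of fold enrichment from 2.5 to 3, the share without partner in WT was 16.8% at start sites and 45.9% inside genes, and in Ezh2-cKO 43.6% and 57.3%. The inside of a gene could not be divided into exons and introns with the reference used here.

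**Figure D4:**
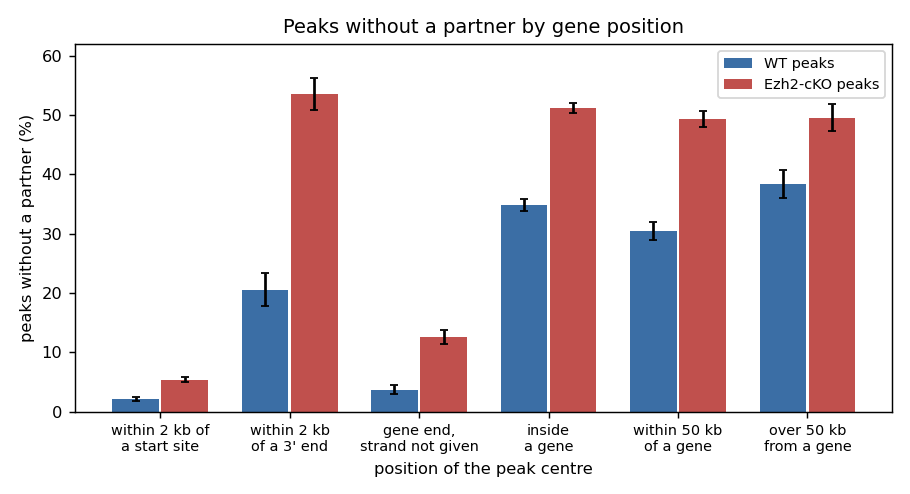
Share of peaks without partner (y axis, %) by position of the peak centre (x axis), for WT (blue) and Ezh2-cKO (red), with 95% Wilson intervals of counting error. Start sites are lowest, at 2.08% and 5.35%, and Ezh2-cKO peaks at 3′ ends are highest, at 53.6%.

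Over 21887 protein-coding genes, 13425 (61.3%) were covered at an end in both lists and 7555 in neither. In WT, 153 genes (0.699%) were covered with no Ezh2-cKO peak within 5 kb, and 479 (2.19%) in the converse. In each set 8 genes had a peak with fold enrichment of 4 or more. Those of WT were Dynlt1b, Ermard, Tcte3, Zfp994, Ear10, Kdm5d, Rnaset2b and 1700016K19Rik, and those of Ezh2-cKO Akain1, Vsx1, Slc25a48, Defb14, Spag11a, Tmem26, Grid2ip and Cyp4f37. Genes of both sets had fewer CG in the promoter window than genes covered in both lists. The median was 8 CG per 300 bases in either set, against 22 for genes covered in both lists, 3 for genes in neither, and 15 over all 17492 genes with a window. Hoxd13, with 37, and Akain1, with 27, are thus untypical of their sets.

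Among developmental regulators, coverage differed mostly toward Ezh2-cKO. Of 45 transcription factors of other lineages, 8 were covered at an end in Ezh2-cKO alone and 0 in WT alone, against 3.17% and 0.978% of all genes. They include Sox17, an endoderm factor (268 bp), Hand1, a heart factor (333 bp), Nkx2-1, a lung and thyroid factor (298 bp), Pax2, a kidney factor (488 bp), and Sox10, a neural crest factor (587 bp). The peaks of all 8 measured 268 to 587 bp, and their fold enrichment lay between 2.37 and 3.49. Among the 8, Pax9 had a WT peak 2 to 5 kb from an end. Covered length over the whole gene and 2 kb around it could be compared for 21 of the 45 factors. It was above WT for 17 in Ezh2-cKO and for all 21 in either demethylase knockout. The median log2 ratio over WT was 0.21 for Ezh2-cKO, against 0.13 over all genes. Utx-cKO gives 1.13 against 0.5, and Jmjd3-cKO 0.55 against 0.03. More covered length than in WT was thus common to the knockout lists. Of 39 Hox genes, 29 were covered in WT and 31 in Ezh2-cKO. Hoxd13 (364 bp) and Hoxb2 (279 bp) were covered in WT alone, and Hoxb6, Hoxb7, Hoxb8 and Hoxd11 in Ezh2-cKO alone. Hoxb6 and Hoxd11 had a WT peak 2 to 5 kb from an end. Dkk1, a Wnt antagonist, was covered at an end in WT alone (344 bp), with an Ezh2-cKO peak 2 to 5 kb from an end. Sfrp5, another antagonist, had 337 bp in Ezh2-cKO alone.

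Covered length over a whole gene and 2 kb around it gives the extent of peaks beyond the promoter. Over 14370 genes covered in both lists, 65.5% had more covered length in Ezh2-cKO, 18.8% by 1.5 times or more, and 3.93% had less by 1.5 times. The median log2 ratio was 0.13. This is the background for the gene lists, which are described and not tested.

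Genes of chondrocyte matrix and regulation mostly had more covered length in Ezh2-cKO. Of 26 covered in both lists, 22 had more, 10 by 1.5 times or more and 0 less by 1.5 times, with a median log2 ratio of 0.46. Snorc had 714 bp in WT and 4928 bp in Ezh2-cKO, and Epyc, the gene of epiphycan, 414 and 1733 bp. Among collagen genes, Col2a1 had 17251 and 27337 bp, Col9a2 1297 and 3785 bp, Col9a3 5201 and 10307 bp, and Col11a2 9230 and 17701 bp. Transcription factor genes of the list went both ways. Foxa3 had 3134 bp in WT and 5009 bp in Ezh2-cKO and Barx2 533 and 862 bp, both past 1.5 times. Sox9 had 7809 and 7861 bp, Sox5 23152 and 22952 bp, Sox6 32960 and 36159 bp, and Trps1 25283 and 24925 bp. Utx-cKO gives a median log2 ratio of 0.78 for the same list and Jmjd3-cKO 0.02, against 0.5 and 0.03 over all genes. In Jmjd3-cKO, Col2a1 had 17071 bp and Col11a2 4381 bp.

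Among genes of hypertrophy and osteogenesis, 16 of 21 had more covered length, 5 by 1.5 times or more and 1 less by as much, with a median of 0.34. Ihh, the hedgehog ligand of prehypertrophic chondrocytes, had 906 bp in WT and 2328 bp in Ezh2-cKO. Alpl, the phosphatase of mineralising cells, had 879 and 3545 bp, and Sp7, an osteoblast factor, 2427 and 4308 bp. Spp1, the gene of osteopontin, was the exception, with 1517 and 866 bp. Runx2, which drives hypertrophy, had 15382 and 17810 bp. Col10a1 and Mmp13, the classical hypertrophic genes, had no peak in either list.

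Wnt and hedgehog genes had list medians above that of all genes, as did most of the lists. Of 29 Wnt ligands and antagonists, 25 had more covered length in Ezh2-cKO and 17 had more by 1.5 times, with a median log2 ratio of 0.62. Wnt2 had 679 bp in WT and 1795 bp in Ezh2-cKO, Wnt9a 1084 and 2755 bp, Wnt11 2083 and 4624 bp, and the antagonist Sfrp1 1585 and 3218 bp. Wnt5a, a noncanonical ligand of the growth plate, had 6676 and 6700 bp, and Wnt3 853 and 623 bp. With lists of equal length, 14 of the Wnt genes and 8 of the genes of chondrocyte matrix and regulation were above 1.5 times. With q of 0.001 or less they were 11 and 6, and with fold enrichment of 4 or more 4 and 2. At that fold enrichment fewer genes could be compared. Of the Wnt genes 10 then had more covered length and 1 less, and of those of chondrocyte matrix and regulation 16 and 1. The share over all genes was not computed at these settings. Of 14 hedgehog genes, 10 had more covered length, 5 by 1.5 times, with a median of 0.48. The effector Gli1 had 1345 and 2964 bp, and the inhibitor Sufu 7009 and 13930 bp. Utx-cKO gives medians of 1.18 for Wnt and 0.82 for hedgehog genes, and Jmjd3-cKO 0.26 and 0.33. Genes of TGF-beta and BMP signalling lay closer to all genes: 21 of 29 had more covered length, 5 by 1.5 times, with a median of 0.2. Adipogenic markers had a median of 0.51, with 7 of 9 higher. Medians above that of all genes were thus not limited to cartilage and signalling genes. Endothelial markers had 0.4 (8 of 9 higher), genes of matrix degradation and inflammation 0.38 (13 of 18), and markers of tendon and synovium 0.32 (14 of 18). Blood markers lay below all genes, at 0.07 (4 of 8).

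Housekeeping genes, cell cycle inhibitors and Hox genes had the lowest list medians. Of 30 housekeeping genes, 12 had more and 18 less covered length in Ezh2-cKO, 0 more by 1.5 times and 2 less by as much, with a median log2 ratio of -0.14. Those 2 were Hnrnpc, an RNA-binding protein, with 5896 bp in WT and 2417 bp in Ezh2-cKO, and Psmb2, a proteasome subunit, with 6160 and 3622 bp. Hnrnpc had 2255 bp in Utx-cKO and 3501 bp in Jmjd3-cKO. Of 30 Hox genes covered in both lists, 17 had more, 10 less and 3 the same, with a median of 0.01. By 1.5 times, 6 had more, a share near that of all genes, and 1 had less. Of 9 cell cycle inhibitors, 4 had more and 5 less, none by 1.5 times. Hoxd11 (630 and 2566 bp) and Hoxd10 (3659 and 7031 bp) had more in Ezh2-cKO, Hoxc8 (5054 and 4150 bp) had less, and Hoxa9, Hoxc9 and Hoxc10 lay wholly within peaks in both. Of 13 PRC2 and H3K27 demethylase genes, 8 had more and 5 less, with a median of 0.21, while Uty, on Y, had 543 bp in WT alone. PRC1 core genes had a median of 0.13, with 14 of 18 higher.

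**Figure D5:**
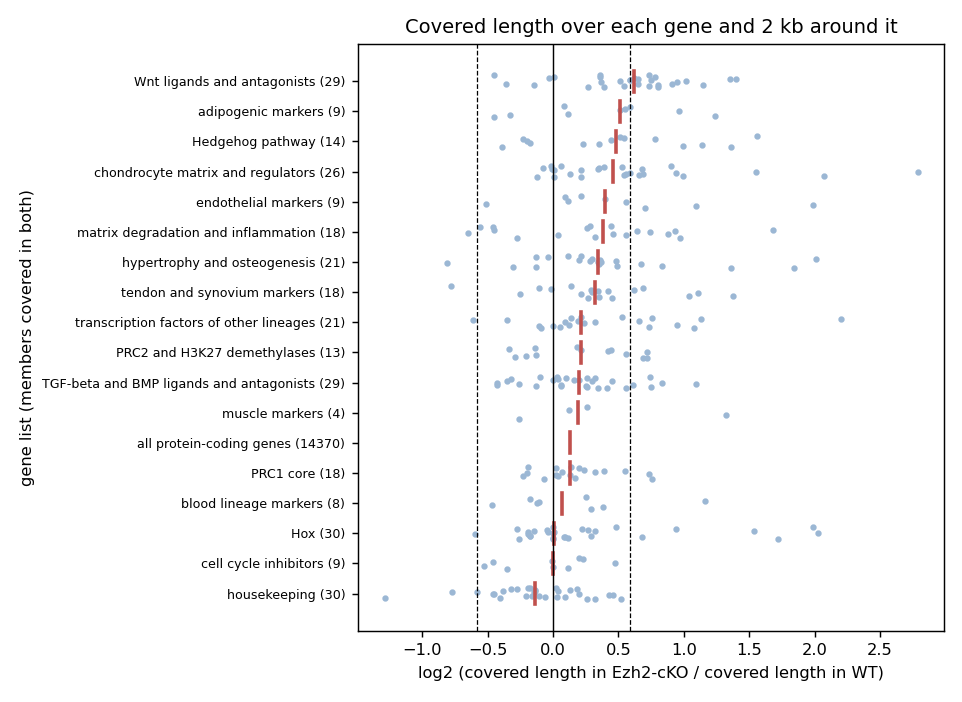
Log2 ratio of covered length in Ezh2-cKO over WT (x axis) for members of 17 gene lists covered in both lists (y axis, with the number of members). Points are genes, red bars list medians, and dashed lines a change by 1.5 times; the row of all protein-coding genes shows its median only. Medians go from -0.14 for housekeeping genes to 0.62 for Wnt genes.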

How the data were processed

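Chromatin from chondrocytes of 4 genotypes was sequenced as 1 ChIP and 1 input library each. Broad peaks were called by the authors in MACS 2.1.2, per the file headers. Each ChIP library was set against its own input as paired-end fragments, without pooling. They used a q of 0.05, a broad threshold of 0.05 and at most 1 duplicate fragment, and scaled the larger library to the smaller. The submitters' processing notes also list deepTools 2.4.1, HOMER 4.10, ChIPseeker, Bowtie2 and FastQC 0.11.5. The deposited lists give −log10 p and −log10 q, fold enrichment as a ratio over the input, and length in bp for each peak. The authors' pileup signal was not used. The genome build is not given in the sources used here, and the files were read as GRCm38, the build of the RefSeq table (GRCm38.p6) used for genes.

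Peaks were paired by an overlap of 1 bp in Python 3.11.15 with networkx 3.6.1, pandas 2.3.3 and numpy 2.4.6, intervals came from scipy 1.17.1, and matplotlib 3.10.9 drew the figures. A gene end counted as covered with a peak within 2 kb. For the sets of 153 and 479 genes, the other list also had no peak within 5 kb. List members named as covered in 1 list alone had no peak of the other list within 2 kb. Both ends of every gene were used for cover, with or without a known strand. Strand was known for 17492 of 21887 genes, and start sites and 3′ ends were told apart for these alone. A domain is a peak of 5 kb or more. The 17 gene lists have 412 entries, which all matched. Named peaks are the 10 longest without partner in each list, the 10 most narrowed and 10 most widened pairs of fold enrichment 4 or more, the 10 least covered domains of each list and 5 rank differences each way. Genes and lists beyond these were named as list members, some after their values were seen. The peaks and lists were chosen with earlier results of these data known. Alternatives were q of 0.001, fold enrichment of 4, equal list lengths, merging within 3 kb, autosomes only, an overlap of 50%, windows of 1 and 5 kb, and domains of 3 and 10 kb. A second order for equal list lengths, start sites of the promoter table, and covered length of 3 gene lists under each alternative were added after the data were seen. Pairing and merging were tested on simulated peaks.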

Additional observations from a re-analysis of the deposited data

How the results depend on the processing

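With peaks of q of 0.001 or less, 2034 WT and 3788 Ezh2-cKO peaks were without partner, the median log2 width ratio was 0.069, and 15 WT domains were covered for under 50%. With fold enrichment of 4 or more in both lists, these values were 577, 1372, 0.049 and 25, and 1 WT domain was without partner. With lists of equal length, 6824 Ezh2-cKO peaks were without partner by p and 7168 by fold enrichment, against 6572 and 6915 in WT, and by p 5 WT domains were covered for under 50%. Merging peaks within 3 kb gave 1606 WT domains, of which 3 had no partner and 165 were covered for under 50%, and 2263 in Ezh2-cKO, of which 35 and 655. With domains of 3 kb or more these counts were 1 and 38 of 2989 in WT and 28 and 265 of 3519 in Ezh2-cKO, and with 10 kb or more 0 of 57 and 0 of 77. With a window of 5 kb, 243 genes were covered in WT alone. The cause of these differences was not tested. The other 38 values of the main comparisons lay within 1.5 times or within their counting interval, and none changed direction. With fold enrichment of 4, 4 Wnt genes and 2 of chondrocyte matrix and regulation had 1.5 times the covered length, and with q of 0.001, 11 and 6. Fewer genes could be compared at fold enrichment of 4, and the share over all genes was not computed there. The depth of the inputs limits which weak peaks could be called. No paired analysis was possible because each genotype has 1 ChIP library, and for the same reason no library could be left out.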
